A study of Mus musculus with 45 samples.

Results

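The genes studied here mark the hepatocytes around the central vein of the mouse liver or answer Wnt signalling there, and they were followed through liver regeneration in Uhrf1hepKO (KO) and wild-type (WT) livers. They are 9 genes listed by name: Glul, Oat, Slc1a2, Rhbg, Lgr5, Axin2, Tbx3, Rnf43 and Znrf3. They were matched by Ensembl ID to the deposited counts, where all 9 were found among 19966 genes and all 9 passed the filter on low counts that kept 14090. Uhrf1hepKO is by its name a knockout of Uhrf1 in hepatocytes. The sources used here do not name the driver of the deletion. All mice were C57Bl/6, 8 to 12 weeks old at surgery, on a normal diet, and all groups but baseline underwent partial hepatectomy (PHx), surgical resection of some liver lobes that sets off regrowth of the rest. With a baseline group and groups at 24 h, 30 h, 40 h, 48 h, 96 h, 7 days and 4 weeks for KO and for WT mice, there were 16 groups. Poly(A) RNA of whole liver gave 45 libraries, 3 in each of 13 groups and 2 in each of 3 (KO at 7 days, WT at 30 h and WT at 48 h).

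Hepatocytes differ by their place between the portal vein and the central vein of the liver lobule, a pattern called zonation. Endothelial cells at the central vein secrete Wnt2, Wnt9b and the R-spondin Rspo3, which stabilise β-catenin in neighbouring hepatocytes and switch on a pericentral programme through TCF transcription factors. Axin2, Rnf43 and Znrf3 belong to the pathway's own negative feedback. R-spondins bind LGR receptors and hold back RNF43 and ZNRF3, the enzymes that clear Wnt receptors from the cell surface.

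Before any result, 1 group went against its label. Uhrf1 itself had 0 to 15.2 CPM (counts scaled to library size, with TMM factors; median 1.08) in the 20 KO libraries outside 96 h and 0.219 to 107 CPM (median 2.81) in the 19 WT libraries outside 96 h, so it did not separate the genotypes library by library. At 40 h it was lower in KO livers by call (log2 -3.52 ± 0.50, adjusted p = 0.000314). Bglap3, a gene high in KO livers of this series, had 3.18 to 17.4 CPM in KO libraries outside 96 h and 0.112 to 1.53 CPM in WT libraries outside 96 h. At 96 h Bglap3 had 8.83 to 29.4 CPM in libraries with the KO label and 9.38 to 28.4 CPM in libraries with the WT label, all 3 of which lay above every other WT library. Rhox5, Gstp2 and Xist also lay, in those 3 libraries, above every other WT library. Albumin transcripts took 14.6 to 19.9% of counts at 96 h under the KO label and 7.23 to 12.4% under the WT label. Results at 96 h are therefore given apart, by label, and the summaries over conditions leave 96 h out unless stated. Total counts per library were 12851359 to 23133501. Nothing in the labels states that libraries of 1 group are from separate animals, and the p-values therefore reflect the spread among these libraries, some of which could be technical.

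Levels of the 9 genes spanned a wide range. Compared per length, as mean FPKM (fragments scaled to library size and transcript length) over all 45 libraries, Oat (683) and Glul (283) were followed by Slc1a2 (29.3), Rhbg (5.95), Rnf43 (5.0), Tbx3 (3.92), Axin2 (2.2), Znrf3 (1.66) and Lgr5 (1.57). The smallest counts in any library were 9982 for Oat and 4480 for Glul, 21 to 103 for Lgr5, Axin2, Tbx3, Rnf43 and Znrf3, and 8 for Rhbg. Rhbg counts did not exceed 57 in any library. Of its annotated exonic bases, 61.4% are shared with the gene Gm38392 on the same strand, and its ratio of CPM to FPKM was 0.28, against 2.37 to 6.84 for the other 8 genes, so its counts are uncertain. Within a gene, the group means differed from lowest to highest by 1.72 times for Znrf3 to 4.59 times for Tbx3. In the order of the 16 group means, neighbouring groups overlapped in all 15 pairs for 7 genes, in 14 of 15 pairs for Slc1a2 and in 13 of 15 pairs for Oat. In bulk liver, fewer cells of a type and less RNA per cell cannot be told apart.

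**Figure D1:**
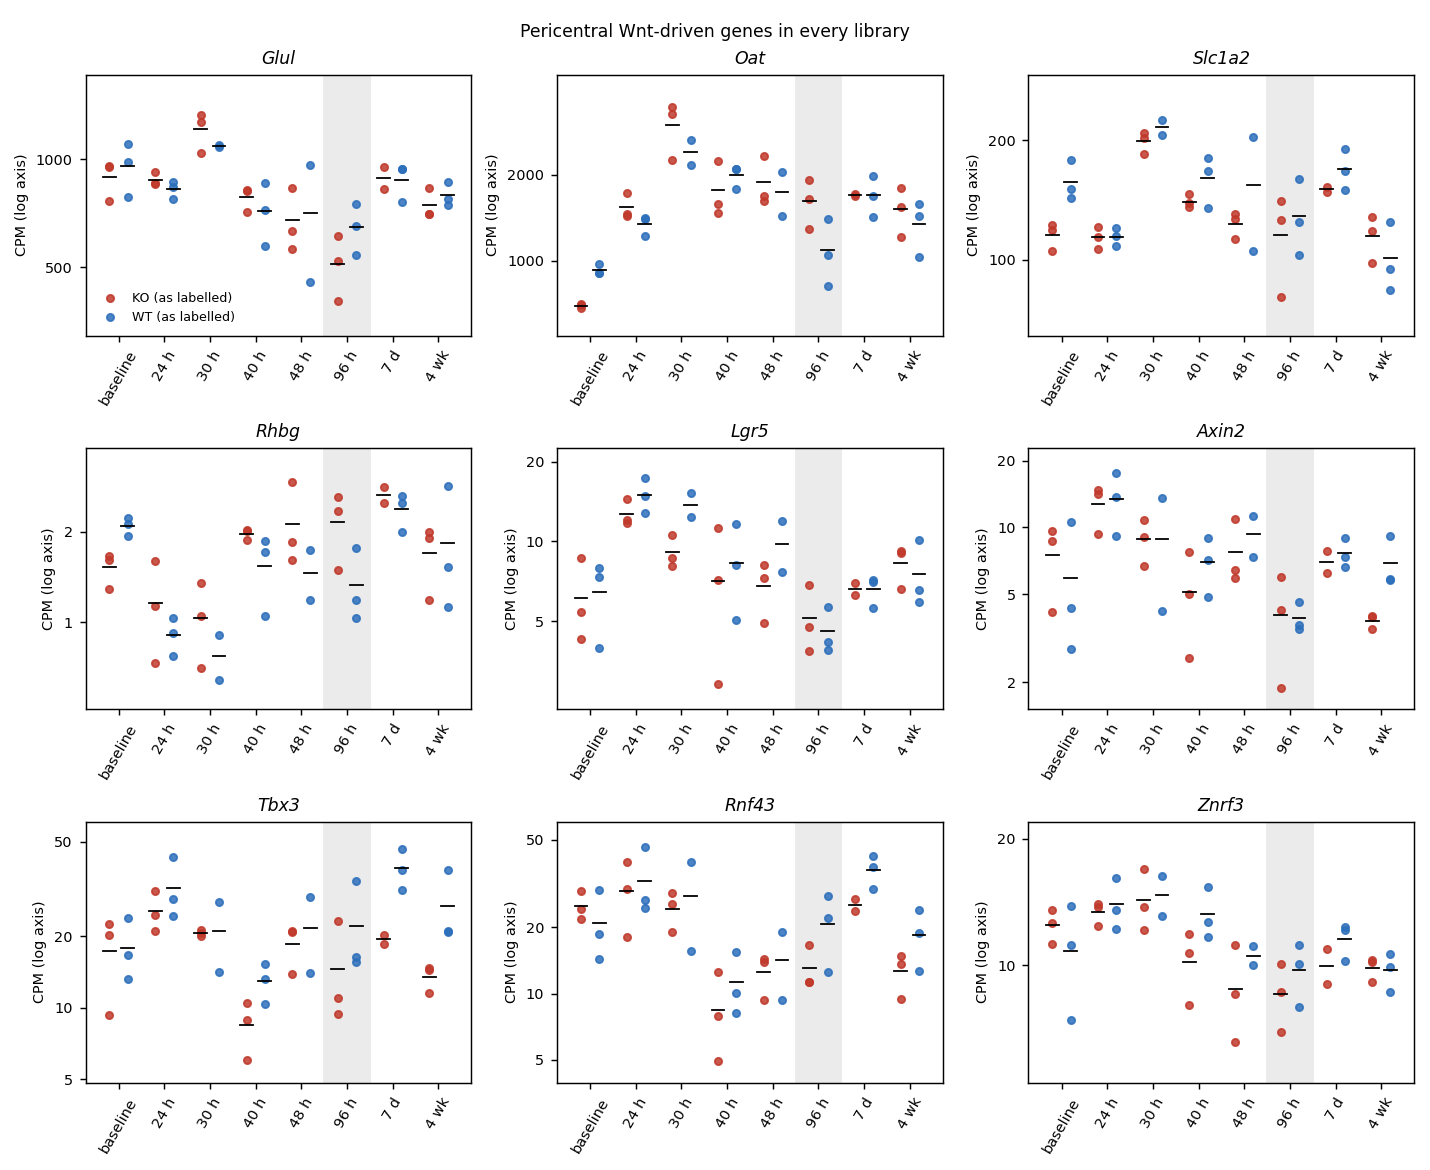
Expression of the 9 genes in every library, in CPM with TMM scaling on a log axis, by condition. Red points are KO libraries and blue points WT libraries, each as labelled, black lines are group means, and the grey band marks 96 h, where the WT label is in doubt. Oat stood lowest at baseline in both genotypes, while Lgr5 and Axin2 had their highest group means at 24 h.

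Promoter sequence is shown for 3 members that stand for different behaviour below: Oat, which rose most widely after surgery, Axin2, the classical Wnt feedback target, and Slc1a2, the single one of the 5 members with a promoter in the table (Glul, Oat, Slc1a2, Axin2 and Rnf43) in which a TCF motif was found. The sequences are the 250 bases before and the first 50 bases from the annotated start, written 5′ to 3′ on the gene's strand, from RefSeq (GRCm38.p6), at chr7:132576349-132576648 (minus strand), chr11:108920099-108920398 (plus strand) and chr2:102706188-102706487 (plus strand). The window of Slc1a2 lies inside the gene's full span, downstream of its outermost start, so it belongs to an internal start. Capitals mark a match to the TCF motif, searched on both strands as CTTTGAT or CTTTGAA.
Oat: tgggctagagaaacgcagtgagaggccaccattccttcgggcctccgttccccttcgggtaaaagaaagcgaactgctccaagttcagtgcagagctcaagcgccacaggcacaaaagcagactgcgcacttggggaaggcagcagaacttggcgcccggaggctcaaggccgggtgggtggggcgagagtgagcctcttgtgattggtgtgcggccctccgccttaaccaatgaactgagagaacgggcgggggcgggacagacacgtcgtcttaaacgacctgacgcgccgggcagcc
Axin2: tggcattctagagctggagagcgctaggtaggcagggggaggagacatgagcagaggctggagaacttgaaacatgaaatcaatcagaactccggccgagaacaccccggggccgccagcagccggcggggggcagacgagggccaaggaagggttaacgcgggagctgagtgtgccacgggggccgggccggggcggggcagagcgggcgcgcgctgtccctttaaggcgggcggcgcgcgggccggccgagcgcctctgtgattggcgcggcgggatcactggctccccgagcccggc
Slc1a2: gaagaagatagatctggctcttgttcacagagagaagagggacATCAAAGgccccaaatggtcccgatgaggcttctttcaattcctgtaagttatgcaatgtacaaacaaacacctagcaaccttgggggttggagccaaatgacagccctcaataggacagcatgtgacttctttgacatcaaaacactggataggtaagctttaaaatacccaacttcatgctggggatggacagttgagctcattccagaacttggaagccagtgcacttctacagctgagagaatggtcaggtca
The match in Slc1a2 is CTTTGAT read on the opposite strand, and it begins 207 bases before that internal start. The promoters of Oat and Axin2 and those listed for Glul and Rnf43 held no match in this window. Of all 32851 promoters in the table, 8.65% held 1 or more. RefSeq promoter sequences for Rhbg, Lgr5, Tbx3 and Znrf3 were not used here.

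The first question was whether the 9 genes differed between KO and WT livers at the same time. Outside 96 h no member did: of 63 tests (9 genes at 7 conditions), 0 passed an adjusted p of 0.05 in edgeR's quasi-likelihood test, with adjustment over all genes tested, where 0.242% of all tests passed. Of the 63, 4 had an unadjusted p under 0.05, and the smallest adjusted p was 0.582. Those 4 were Oat and Slc1a2 at baseline and Tbx3 at 7 days and at 4 weeks, all lower in KO livers. Of all 14090 genes tested, 997 had an unadjusted p under 0.05 at baseline, 773 at 7 days and 679 at 4 weeks. Over the 7 conditions this number ran from 473 (24 h) to 1512 (30 h). The median log2 difference over the 9 genes lay between -0.22 (at 40 h) and -0.04 (at 30 h) at these conditions, beside -0.03 to 0.02 for the median of all genes tested. By condition, the percent of all genes called was, in order of time from baseline to 4 weeks without 96 h, 0.0852, 0.0426, 0.937, 0.142, 0.135, 0.135 and 0.22. Separation of the libraries without a call was common among genes at large: libraries did not overlap for 3 of 9 members at baseline (13.6% of all genes tested), 1 of 9 at 24 h (8.89%), 1 of 9 at 30 h (27.6%), 1 of 9 at 40 h (11.4%), 0 of 9 at 48 h (17.9%), 2 of 9 at 7 days (18.3%) and 2 of 9 at 4 weeks (13.9%).

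At baseline, Oat, Slc1a2 and Rhbg stood lower in KO livers without reaching the threshold. Oat, ornithine aminotransferase, had 702, 696 and 681 CPM in KO livers, against 905, 976 and 902 CPM in WT livers. Slc1a2, a glutamate transporter, had 122, 119 and 105 CPM in KO livers, against 151, 178 and 143 CPM in WT livers. The libraries of the genotypes did not overlap for either gene, yet the log2 differences of -0.42 ± 0.20 and -0.45 ± 0.18 (SE) had adjusted p-values of 0.690 and 0.582. Rhbg, an ammonium transporter, had 1.62, 1.67 and 1.29 CPM in KO livers, against 2.12, 1.93 and 2.22 CPM in WT livers, on 23 to 29 counts a library (log2 difference -0.46 ± 0.32, adjusted p = 0.792). Glul, glutamine synthetase, which condenses ammonia with glutamate in the hepatocytes nearest the central vein, overlapped between genotypes at each of the 8 conditions. Its mean log2 difference over the 7 conditions without 96 h was 0.02 ± 0.08, with a 95% interval of -0.14 to 0.17.

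Tbx3, a transcription factor of pericentral hepatocytes, was the member whose mean difference over the 7 conditions lay furthest from 0, without passing. At 7 days it had 20.3 and 18.5 CPM in KO livers, against 46.7, 31.3 and 38.1 CPM in WT livers. At 4 weeks it had 14.4, 14.7 and 11.5 CPM in KO livers, against 38.1, 21.1 and 20.9 CPM in WT livers. All KO libraries lay below all WT libraries at both times, with log2 differences of -0.99 ± 0.41 and -0.99 ± 0.37, but neither passed (adjusted p = 0.813 and 0.707). Its estimated difference was below 0 at each of the 7 conditions without 96 h. The group means were close at baseline (17.3 CPM in KO and 17.9 CPM in WT livers) and at 30 h (20.6 and 21.0 CPM). Averaged over the 7 conditions the log2 difference was -0.46 ± 0.14 (95% interval -0.76 to -0.17), with an adjusted p of 0.104. DESeq2 called this mean difference (adjusted p = 0.0398). With the libraries labelled 96 h added, edgeR gave -0.48 ± 0.13 (adjusted p = 0.0434, where 0.802% of all genes were called lower). That call was kept in 22 of 52 alternatives. Because the WT label is in doubt at 96 h, the mean with 96 h is not a comparison of genotypes alone. Across the 9 genes, 0 mean differences passed over 7 conditions, where 2.13% of all genes did. Of the 9, 2 had an unadjusted p under 0.05, as had 1491 of all 14090 genes tested.

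For the other members the 7-condition mean differences were small beside their error. Lgr5, the R-spondin receptor, stood at -0.22 ± 0.13, Axin2, a scaffold of the β-catenin destruction complex, at -0.21 ± 0.17, and Rnf43 at -0.25 ± 0.15. Znrf3 stood at -0.10 ± 0.08, Oat at 0.03 ± 0.08, Slc1a2 at -0.15 ± 0.07 and Rhbg at 0.18 ± 0.13. Slc1a2 was the other gene with an unadjusted p under 0.05 (adjusted p = 0.427). Axin2 at 4 weeks had 3.94, 3.5 and 3.97 CPM in KO livers, against 9.12, 5.78 and 5.83 CPM in WT livers, which did not overlap but did not pass (log2 difference -0.86 ± 0.44, adjusted p = 1). The marker lists of other liver cells did not differ by call between the genotypes at these conditions: 0 of 20 endothelial, 0 of 14 stellate cell and 0 of 12 Kupffer cell markers passed at any of the 7, where 0.242% of all tests did. Summed levels at baseline overlapped for stellate cell markers (325 to 509 CPM in KO livers, 312 to 357 CPM in WT livers) but stood apart for other lists. Kupffer cell markers summed to 233 to 331 CPM in KO livers, against 139 to 213 CPM in WT livers. Endothelial markers summed to 399 to 436 CPM in KO livers, against 318 to 388 CPM in WT livers, and neutrophil and monocyte markers to 31.3 to 40.4 CPM in KO livers, against 15.4 to 26.1 CPM in WT livers. Their part in the baseline values of Oat and Slc1a2 was not tested.

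**Figure D2:**
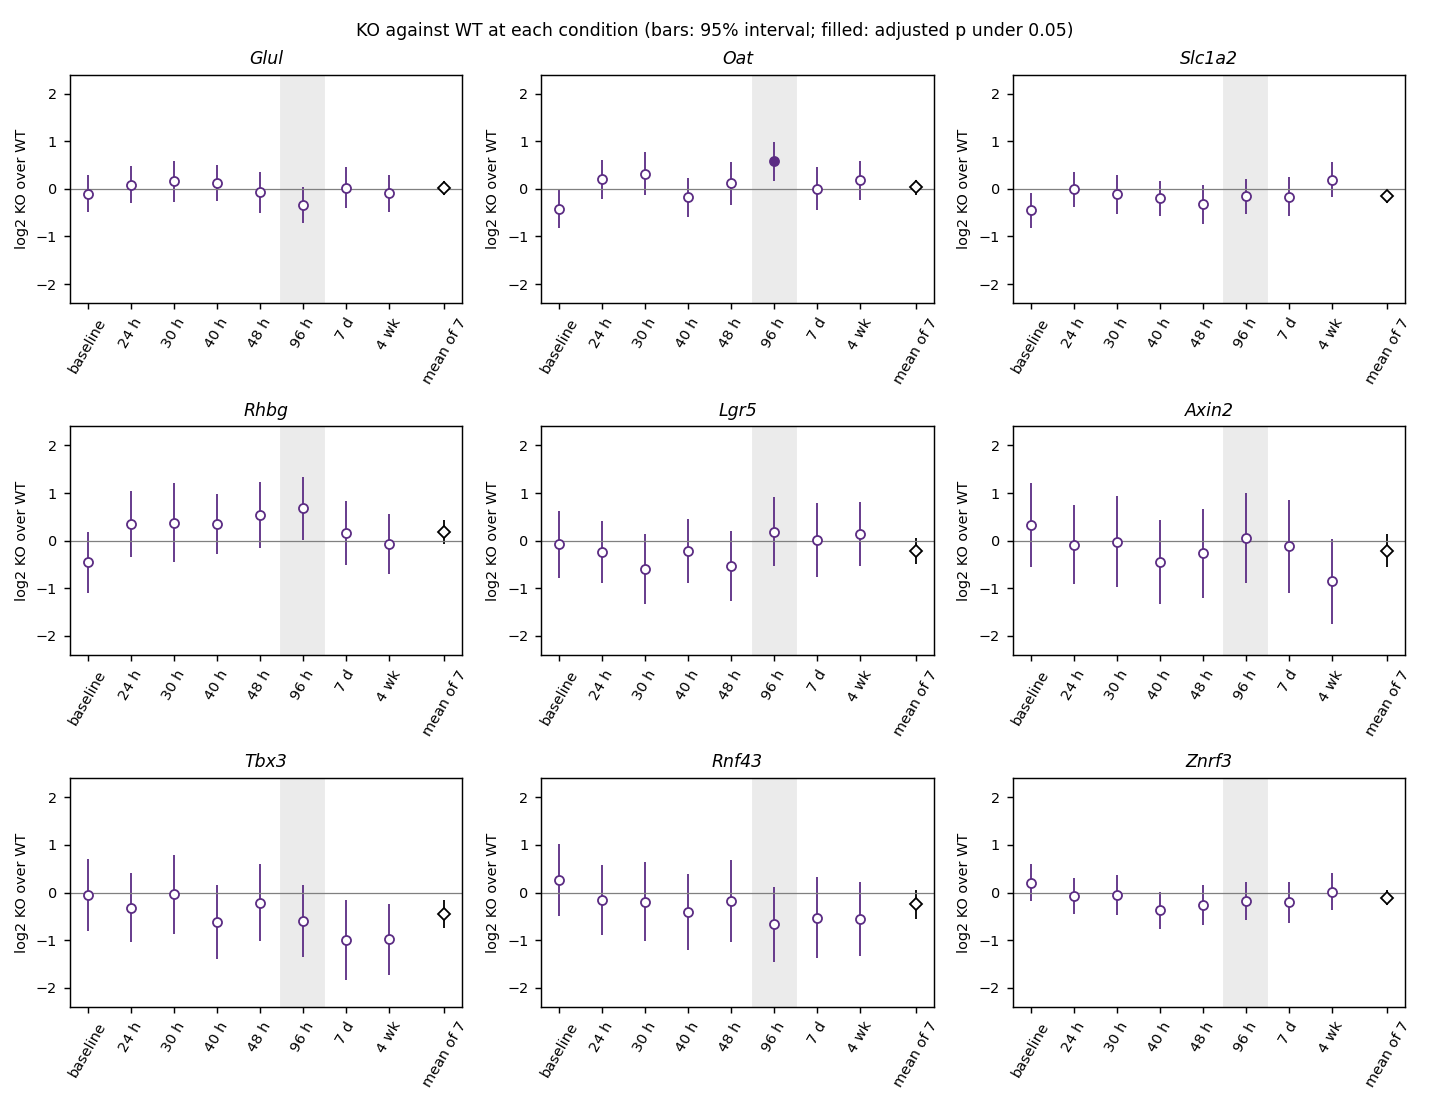
Difference between KO and WT livers at each condition, as log2 of KO over WT with its 95% interval, for each gene. Black diamonds are the mean over the 7 conditions without 96 h, a filled symbol has an adjusted p under 0.05, and the grey band marks 96 h, given by label. One circle is filled, Oat at 96 h, and the Tbx3 estimates lie below 0 at all 8 conditions.

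Among the libraries at 96 h, taken by label, Oat was called higher in those labelled KO than in those labelled WT, near the threshold. It had 1918, 1648 and 1291 CPM under the KO label, against 1045, 1400 and 812 CPM under the WT label, and the ranges overlapped. The log2 difference was 0.58 ± 0.20 (adjusted p = 0.0491). This was 1 call higher and 0 lower among the 9 genes, where 7.22% of all genes were called higher and 7.08% lower. Slc1a2 had a log2 difference of -0.16 ± 0.18 at 96 h in the counts (adjusted p = 0.605), but -0.57 in the FPKM values (adjusted p = 0.0233, limma with a pseudocount of 0.1). The Oat call was lost in 10 of 14 alternatives, among them leaving out KO replicate 1 (adjusted p = 0.212), KO replicate 2 (0.0999), WT replicate 1 (0.127) or WT replicate 3 (0.232). Set against baseline, the change of Oat at 96 h was larger under the KO label than under the WT label by log2 1.00 ± 0.28 (adjusted p = 0.0470), the single call of this kind among the 9 genes, where 1.25% of all genes had a called positive difference and 2.91% one in either direction. It was kept in 4 of 19 alternatives. Since the libraries labelled WT have KO levels of Bglap3, Rhox5, Gstp2 and Xist, genotype and label cannot be told apart at this time.

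The second question was how the genes moved after surgery within each genotype. All times of a genotype were set against the same baseline libraries, so the comparisons within a genotype share them. Over the 6 times without 96 h, 54 tests per genotype gave 8 calls higher and 4 lower in KO livers, where 12.1% of all tests were called higher and 11.6% lower. WT livers gave 7 calls higher and 2 lower in 54, where 9.55% of all tests were higher and 9.18% lower. By time, the percent of all genes called higher in KO livers was 11.5 at 24 h, 17 at 30 h, 17.9 at 40 h, 19 at 48 h, 3.06 at 7 days and 4.29 at 4 weeks, and lower 12.2, 16.1, 17.7, 17, 2.5 and 4.28 in that order. In WT livers it was 10.5, 9.33, 19.2, 15.6, 2.25 and 0.433 higher, and 11.9, 8.35, 17.3, 15.4, 1.31 and 0.738 lower. The 9 genes were not tested as a set and are described gene by gene. The share of all genes whose libraries stood apart from baseline was not counted. Separation from baseline without a call is therefore description only.

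Oat carried most of the increases. In KO livers the mean level was 693 ± 11 CPM before surgery, 1540 ± 162 CPM at 24 h, 2998 ± 646 CPM at 30 h, 1764 ± 417 CPM at 40 h, 1880 ± 391 CPM at 48 h, 1701 ± 17.5 CPM at 7 days and 1518 ± 296 CPM at 4 weeks (SD, n = 3, and n = 2 at 7 days). In WT livers it was 928 ± 41.7 CPM before surgery, 1344 ± 108 CPM at 24 h, 2404 ± 348 CPM at 30 h, 1992 ± 181 CPM at 40 h, 1737 ± 429 CPM at 48 h, 1695 ± 281 CPM at 7 days and 1345 ± 283 CPM at 4 weeks (n = 3, and n = 2 at 30 h and 48 h). The peak stood at 30 h in both genotypes, and at all these times every later library lay above every baseline library of its genotype.

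In KO livers Oat rose at all 6 of these times, by log2 1.15 ± 0.20 at 24 h, 2.11 ± 0.21 at 30 h, 1.35 ± 0.20 at 40 h, 1.44 ± 0.20 at 48 h, 1.29 ± 0.22 at 7 days and 1.13 ± 0.20 at 4 weeks, with adjusted p-values of 7.86e-10 (30 h) to 0.00128 (4 weeks). These calls held in every alternative that was run. In WT livers it rose by 1.37 ± 0.22 at 30 h (adjusted p = 2.29e-05), 1.10 ± 0.20 at 40 h (4.54e-05), 0.90 ± 0.22 at 48 h (0.00170) and 0.87 ± 0.20 at 7 days (0.0108). At 24 h and 4 weeks the WT values were 0.53 ± 0.20 (adjusted p = 0.0514) and 0.54 ± 0.20 (adjusted p = 0.194). The WT call at 48 h was lost without WT replicate 3 of 48 h (adjusted p = 0.0869) and that at 7 days without WT baseline replicate 3 (0.0619). The change in KO livers exceeded the change in WT livers by 0.62 ± 0.28 at 24 h, 0.74 ± 0.30 at 30 h and 0.60 ± 0.28 at 4 weeks, and none of these differences passed (adjusted p = 1.00, 0.489 and 0.788). The KO baseline in these differences is the lower one given above, and its part in them was not tested.

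Slc1a2 reached its highest level at 30 h as well. At 30 h it had 209, 185 and 203 CPM in KO livers, against 122, 119 and 105 CPM at baseline, a rise of log2 0.79 ± 0.18 (adjusted p = 0.000980) that held in every alternative. Slc1a2 in WT livers had 225 and 206 CPM at 30 h, against 151, 178 and 143 CPM at baseline, without overlap but short of the threshold (0.46 ± 0.20, adjusted p = 0.116). At 4 weeks WT livers had 83.7, 94.7 and 124 CPM, below all 3 baseline libraries (-0.64 ± 0.18, adjusted p = 0.0703). Counts and FPKM tracked each other less for Slc1a2 (Pearson r 0.64 over 45 libraries, a description) than for the other 8 genes (0.89 to 0.97). At 48 h in KO livers the log2 change was 0.09 ± 0.18 in counts and 0.67 in FPKM (adjusted p = 0.718 and 0.00151).

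Glul was not called at any time outside 96 h in either genotype. In KO livers it had 1324, 1043 and 1271 CPM at 30 h, against 955, 952 and 767 CPM at baseline, which did not overlap but did not pass (log2 0.44 ± 0.19, adjusted p = 0.0689). DESeq2 called it (adjusted p = 0.0467). Single libraries mattered for Glul: in WT livers at 48 h the change was -0.43 ± 0.21 (adjusted p = 0.127) with all libraries and -1.07 without WT 48 h replicate 3 (0.000989). WT livers at 40 h passed without WT 40 h replicate 2 (0.0365) or WT baseline replicate 3 (0.0417), and KO livers at 48 h passed without KO 48 h replicate 1 (0.0324). Rhbg fell in WT livers, where it had 0.773, 1.04 and 0.922 CPM at 24 h, against 2.12, 1.93 and 2.22 CPM at baseline (-1.19 ± 0.33, adjusted p = 0.00731), and 0.644 and 0.909 CPM at 30 h (-1.40 ± 0.39, adjusted p = 0.0111). In KO livers its changes of -0.38 ± 0.33 and -0.56 ± 0.33 at these times did not pass. These Rhbg values rest on 8 to 29 counts a library, and the 30 h call was lost without WT 30 h replicate 2 (adjusted p = 0.121) or replicate 3 (0.0545).

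Among the receptor and feedback genes, Lgr5 rose early in both genotypes. At 24 h it had 14.5, 11.7 and 12.0 CPM in KO livers, against 5.42, 8.65 and 4.27 CPM at baseline (log2 1.06 ± 0.33, adjusted p = 0.0173). In WT livers it had 14.8, 12.8 and 17.3 CPM at 24 h, against 7.96, 7.37 and 3.97 CPM at baseline (1.22 ± 0.33, adjusted p = 0.00683). All 24 h libraries lay above all baseline libraries in both genotypes. At 30 h WT livers still had 12.3 and 15.2 CPM (1.10 ± 0.36, adjusted p = 0.0333), while KO livers had 10.6, 8.63 and 8.05 CPM (0.58 ± 0.33, adjusted p = 0.183). The WT calls were lost without WT baseline replicate 3 (adjusted p = 0.0557 at 24 h and 0.151 at 30 h). That at 30 h was also lost without WT 30 h replicate 2 (0.0675) or 3 (0.227), and the KO call was lost without KO 24 h replicate 1 (0.0610) or KO baseline replicate 1 (0.0690) or 3 (0.109). With FPKM in limma the KO call was lost at a pseudocount of 0.1 (0.0524) and with no filter (0.0820). It was kept in 10 of 15 alternatives.

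Axin2 followed Lgr5 at 24 h with wider scatter. It had 14.1, 14.7 and 9.33 CPM in KO livers at 24 h, against 8.65, 9.58 and 4.17 CPM at baseline (0.77 ± 0.42, adjusted p = 0.186). In WT livers it had 17.5, 9.10 and 13.7 CPM at 24 h, against 4.31, 10.5 and 2.83 CPM at baseline, which overlapped and passed (1.19 ± 0.43, adjusted p = 0.0418). That call was kept in 6 of 15 alternatives, and leaving out WT baseline replicate 1 or 3, or WT 24 h replicate 1 or 3, gave adjusted p-values of 0.164, 0.194, 0.168 and 0.0910. The change in KO livers minus that in WT livers was not called for any member at any time outside 96 h. The percent of all genes called for this difference at these 6 times was 0 at 24, 40 and 48 h and 7 days, 0.0355 at 30 h and 0.0071 at 4 weeks. A joint test of the 6 differences called 0 of the 9 genes, where 0.0426% of all genes passed. In it, 0 of the 9 had an unadjusted p under 0.05, against 798 of all 14090 genes tested.

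Outside 96 h, decreases among the feedback genes were called in KO livers at 40 h and 48 h, and none at 7 days or 4 weeks. Rnf43, a ubiquitin ligase that removes Wnt receptors, had 12.5, 4.92 and 7.90 CPM in KO livers at 40 h, against 29.3, 24.2 and 21.8 CPM at baseline. It fell by 1.57 ± 0.39 on the log2 scale at 40 h (adjusted p = 0.00182), a call kept in all 16 alternatives. At 48 h it had 13.9, 14.3 and 9.32 CPM in KO livers and fell by 1.00 ± 0.38 (adjusted p = 0.0366). In WT livers Rnf43 had 10.1, 15.4 and 8.19 CPM at 40 h, against 18.5, 29.6 and 14.4 CPM at baseline (-0.89 ± 0.38, adjusted p = 0.0690). DESeq2 called the WT value at 40 h (adjusted p = 0.0391), as did edgeR without WT 40 h replicate 2 (0.0346) or WT baseline replicate 3 (0.0405). Names of the baseline libraries carry the 40 h prefix and the same numbers, and with those numbers as a block in the baseline and 40 h libraries alone the WT change was called (-0.88, adjusted p = 0.00107). The labels do not state whether such libraries come from the same animals. At 4 weeks, Rnf43 (-0.99 ± 0.38, adjusted p = 0.0936) and Axin2 (-0.96 ± 0.44, adjusted p = 0.168) lay below all baseline libraries in KO livers without passing, and Rnf43 was called there with FPKM (0.0268 to 0.0483) and with only the 2 groups (0.0122).

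Tbx3 had 8.82, 6.03 and 10.4 CPM in KO livers at 40 h, against 20.3, 22.4 and 9.32 CPM at baseline, where the third library overlapped (-1.03 ± 0.38, adjusted p = 0.0322). Tbx3 in WT livers had 13.2, 15.2 and 10.4 CPM at 40 h, against 13.1, 23.9 and 16.6 CPM at baseline (-0.46 ± 0.37, adjusted p = 0.348). Znrf3, the partner ligase of RNF43, had 11.1, 8.55 and 6.56 CPM in KO livers at 48 h, against 12.6, 11.2 and 13.5 CPM at baseline (-0.51 ± 0.19, adjusted p = 0.0335), and its WT change there was -0.04 ± 0.21. With FPKM, the Znrf3 change at 48 h was -0.30 (pseudocount 0.1) and -0.19 (pseudocount 1) and did not pass (adjusted p = 0.274 to 0.367), and the call was also lost with total counts, with no filter and with only the 2 groups (5 of 15 alternatives kept it). Tbx3 at 40 h was lost with FPKM (0.061 to 0.0939), with no filter (0.0538), with only the 2 groups (0.0631) and with the block on baseline and 40 h libraries (0.143), and 6 of 16 alternatives kept it. Rnf43 at 48 h was lost with total counts (0.0893) and with no filter (0.0681). All 3 calls were also lost when single libraries were left out. Without KO baseline replicate 1, adjusted p-values were 0.105 for Tbx3 at 40 h, 0.113 for Rnf43 at 48 h and 0.0714 for Znrf3 at 48 h. The other libraries whose loss ended a call were KO baseline replicate 2 (Tbx3 0.149, Rnf43 0.0593) and 3 (Znrf3 0.118), KO 40 h replicates 1 (Tbx3 0.0609) and 2 (Tbx3 0.138), and KO 48 h replicates 1 (Rnf43 0.0581), 2 (Rnf43 0.0548, Znrf3 0.0858) and 3 (Rnf43 0.136, Znrf3 0.201). At 7 days WT livers had 46.7, 31.3 and 38.1 CPM of Tbx3, above all 3 baseline libraries (1.11 ± 0.36, adjusted p = 0.0821), and DESeq2 called that change (adjusted p = 0.0316).

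**Figure D3:**
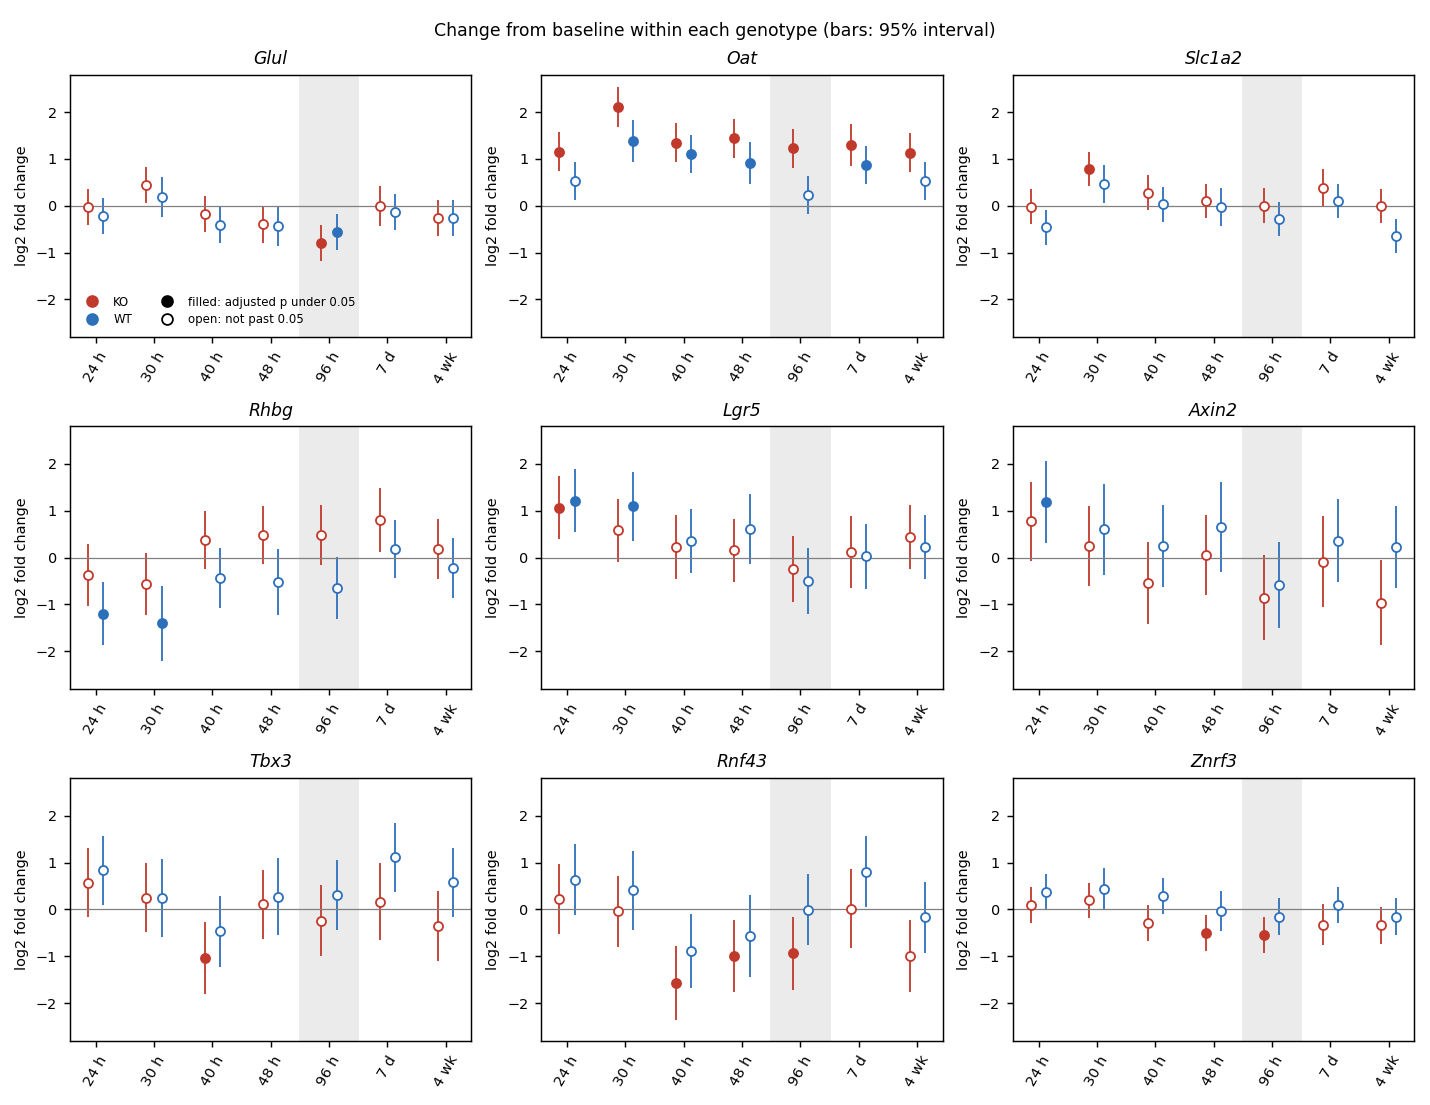
Change of each gene from baseline at each time after surgery, as log2 fold change with its 95% interval, in KO livers (red, left) and WT livers (blue, right). Filled symbols have an adjusted p under 0.05, and the grey band marks 96 h, given by label. Oat lies above 0 at every time in both genotypes, Lgr5 is filled at 24 h in both, and the filled Rnf43 and Znrf3 symbols are those of KO livers.

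Calls at 96 h against baseline are given by label, beside the share of all genes called. In the libraries labelled KO, 1 of 9 genes was called higher than baseline (21.9% of all genes) and 3 lower (22.1%): Oat rose by log2 1.22 ± 0.20, and Glul (-0.80 ± 0.19), Rnf43 (-0.94 ± 0.38) and Znrf3 (-0.54 ± 0.19) fell, with adjusted p-values of 8.95e-06, 0.000827, 0.0453 and 0.0216. In the libraries labelled WT, 0 of 9 were called higher (12.8%) and 1 lower (14.6%), Glul (-0.57 ± 0.19, adjusted p = 0.0248). Glul had 403, 610 and 520 CPM under the KO label and 540, 652 and 750 CPM under the WT label, each group below all baseline libraries of its genotype. The KO call for Glul was kept in all 14 alternatives. The WT call was lost without WT 96 h replicate 1 (adjusted p = 0.17) or 2 (0.0739), or WT baseline replicate 1 (0.0574) or 2 (0.122). Znrf3 was lost without KO 96 h replicate 1 (0.0564) or 3 (0.140) or KO baseline replicate 3 (0.0782). Rnf43 was lost without any 1 of KO baseline replicates 1 (0.128), 2 (0.0733) and 3 (0.0518) and of KO 96 h replicates 1 (0.143) and 2 (0.138). Kupffer cell markers summed to 490 to 879 CPM at 96 h under the KO label and 306 to 421 CPM under the WT label, against 233 to 331 CPM in KO and 139 to 213 CPM in WT at baseline. Their part in these changes was not tested.

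The genes upstream were read next, from a list of the pathway. Of 10 ligand genes tested (of 23 listed), the numbers that rose at 24, 30, 40 and 48 h were 3, 3, 5 and 3 in KO livers and 1, 2, 4 and 4 in WT livers, and 0 fell. At these times 11.5, 17, 17.9 and 19% of all genes were called higher in KO livers, and 10.5, 9.33, 19.2 and 15.6% in WT livers. Wnt9b had 7.89, 7.84 and 5.53 CPM in KO livers at 30 h, against 1.13, 0.865 and 0.772 CPM at baseline (log2 2.95 ± 0.35, adjusted p = 3.82e-08). Wnt9b in WT livers had 4.35 and 8.17 CPM at 48 h, against 1.02, 1.22 and 0.993 CPM at baseline (2.53 ± 0.37, adjusted p = 1.92e-06). These baseline values rest on low counts, 14 to 16 a library in KO and 13 to 17 in WT livers. Wnt9b was called higher at 24, 30, 40 and 48 h in both genotypes, with every later library above baseline, and its largest change fell at 30 h in KO and 48 h in WT livers. At 48 h KO and WT libraries did not overlap (log2 difference -1.05 ± 0.33), and that difference did not pass (adjusted p = 0.559).

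Wnt2 rose in KO livers by log2 1.16 ± 0.32 at 24 h (adjusted p = 0.00661), 1.18 ± 0.32 at 30 h (0.00418), 1.00 ± 0.32 at 40 h (0.0129) and 0.84 ± 0.32 at 48 h (0.0363, where libraries overlapped). In WT livers Wnt2 rose by 1.21 ± 0.31 at 40 h (0.00252) and 1.05 ± 0.34 at 48 h (0.0178), while 0.81 ± 0.32 at 24 h (0.0609) and 0.64 ± 0.35 at 30 h (0.225) did not pass. Rspo3 rose in KO livers by 0.87 ± 0.24 at 24 h, 0.73 ± 0.24 at 30 h and 0.61 ± 0.24 at 40 h, with adjusted p-values of 0.00623 to 0.0430, while 0.48 ± 0.24 at 48 h did not pass (0.108). In WT livers Rspo3 rose by 1.03 ± 0.26 at 30 h, 0.95 ± 0.24 at 40 h and 1.14 ± 0.26 at 48 h, with adjusted p-values of 0.000866 to 0.00521, while 0.65 ± 0.24 at 24 h did not pass (0.0505). No ligand gene of the 10 was called at 7 days or 4 weeks in either genotype, and none differed by call between KO and WT livers outside 96 h. Of the 20 endothelial markers, 7 fell and 1 rose in KO livers at 30 h and 6 fell and 1 rose at 48 h, among them Lyve1 (-1.55 and -1.73), while in WT livers 0 fell and 1 rose at each of these times. The riser was Thbd each time. Of all genes, 16.1% fell and 17% rose by call in KO livers at 30 h, and 17% and 19% at 48 h. In WT livers 8.35% fell and 9.33% rose at 30 h, and 15.4% and 15.6% at 48 h. The summed endothelial markers were 223 to 359 CPM in KO livers at 30 h, against 399 to 436 CPM at baseline, and 309 to 321 CPM in WT livers at 30 h, against 318 to 388 CPM at baseline, and their part in the ligand values was not tested.

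**Figure D4:**
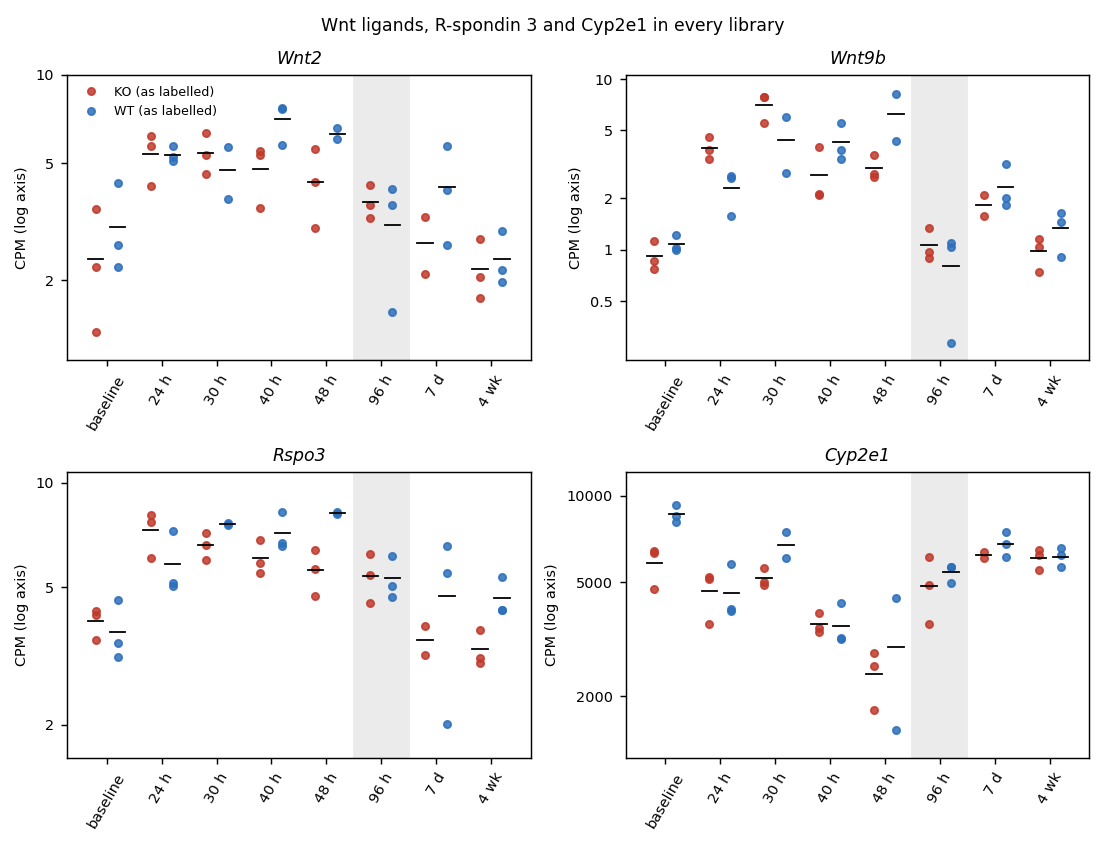
Expression of Wnt2, Wnt9b, Rspo3 and Cyp2e1 in every library, in CPM with TMM scaling on a log axis. Red points are KO libraries and blue points WT libraries, each as labelled, black lines are group means, and the grey band marks 96 h. Wnt9b lies above its baseline level in every library of 24 to 48 h, and Cyp2e1 has its lowest group means at 48 h.

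Receptors and transducers moved less uniformly. Lgr4, the other R-spondin receptor of the liver, fell: by 0.90 ± 0.13 in KO and 0.96 ± 0.13 in WT livers at 24 h, and by 0.79 ± 0.12 in KO and 0.61 ± 0.14 in WT livers at 30 h, on the log2 scale (adjusted p = 6.00e-07 to 0.00193). At 24 h, 11.5% of all genes rose and 12.2% fell by call in KO livers, and 10.5% and 11.9% in WT livers. Of 11 receptor and co-receptor genes tested, 1 rose and 2 fell in KO livers at 24 h, and 1 rose and 3 fell in WT livers. The riser was the co-receptor gene Lrp5 (0.66 in KO and 1.11 in WT), and Fzd8, a Frizzled receptor gene, fell most (-1.49 in KO and -1.53 in WT). Tcf7l2, the main TCF factor of hepatocytes, fell at 40 h (-0.77 ± 0.19 in KO, -0.56 ± 0.19 in WT) and 48 h (-0.91 ± 0.19 in KO, -0.76 ± 0.21 in WT), with adjusted p-values of 0.000181 to 0.0190. Ctnnb1, which encodes β-catenin, was not called in any comparison. Its estimates in KO and WT livers lay between -0.25 and 0.11 against baseline. Apc, a scaffold of the destruction complex, was called only in the libraries labelled KO at 96 h (-0.83 ± 0.14, adjusted p = 1.00e-05).

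Other targets and zonated genes frame these changes. Counts called at 24 h stand beside 11.5% of all genes called higher and 12.2% lower in KO livers, and 10.5% and 11.9% in WT livers. Of 10 other Wnt target genes tested, 3 rose and 1 fell in KO livers at 24 h, and 4 rose and 1 fell in WT livers. Ccnd1, the G1 cyclin D1, rose most (2.46 in KO and 2.88 in WT), and Tnfrsf19 fell (-2.24 in KO and -2.07 in WT). Cyp2e1, a pericentral cytochrome P450, fell in KO livers at 40 h (-0.71 ± 0.23, adjusted p = 0.0159) and 48 h (-1.29 ± 0.24, 4.26e-05), and in WT livers at 24 h (-0.91 ± 0.23, 0.00409), 40 h (-1.29 ± 0.24, 3.92e-05) and 48 h (-1.54 ± 0.27, 3.34e-05). At baseline Cyp2e1 had 6329, 4738 and 6449 CPM in KO livers, against 8112, 8482 and 9302 CPM in WT livers. These libraries did not overlap, as for 13.6% of all genes tested. The part of the baseline levels in the size of the falls was not tested. At 40 h the genotypes overlapped, with 3462, 3348 and 3906 CPM in KO and 3160.5, 4219 and 3200 CPM in WT livers. Of 32 other pericentral hepatocyte genes, 12 rose and 10 fell in KO livers at 24 h, and 8 rose and 15 fell in WT livers. Slc22a3 (1.59 in KO and 1.17 in WT) was among those that rose and Cyp2a5 (-3.59 in KO and -4.76 in WT) fell most. Summed over this list, baseline levels were 21308 to 24033 CPM in KO livers, against 26990 to 30599 CPM in WT livers. Of 30 periportal genes, 0 rose and 17 fell in KO livers at 24 h, and 1 rose and 20 fell in WT livers, led by Sult5a1 (-4.03 in KO and -2.91 in WT) and Gls2, the liver glutaminase (-2.54 in KO and -2.18 in WT). The median log2 change of the 9 members at 24 h was 0.22 in KO and 0.53 in WT livers, beside -0.22 and -0.29 for the other pericentral list, -0.84 and -0.88 for the periportal list, and -0.01 and -0.00 for all genes tested. The member median did not stay there: at 30, 40 and 48 h, 7 days and 4 weeks it was 0.26, -0.18, 0.09, 0.12 and -0.26 in KO livers. In WT livers it was 0.45, 0.03, -0.03, 0.18 and -0.15 at these times.

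The members did not move as 1 block. Over the 16 group means, Pearson r of log2 CPM among the 36 pairs of members was highest for Tbx3 with Rnf43 (0.83), Lgr5 with Axin2 (0.76) and Lgr5 with Znrf3 (0.72), and lowest for Rhbg with Znrf3 (-0.75) and Rhbg with Lgr5 (-0.72). Without 96 h these values were 0.82, 0.66, 0.65, -0.80 and -0.86. Oat stood at -0.02 with Tbx3 and -0.14 with Rnf43. These are descriptions over points that share libraries, depth and scaling. Within groups, Axin2 and Tbx3 had the same highest library in 13 of 16 groups, and Tbx3 and Rnf43 in 11 of 16.

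**Figure D5:**
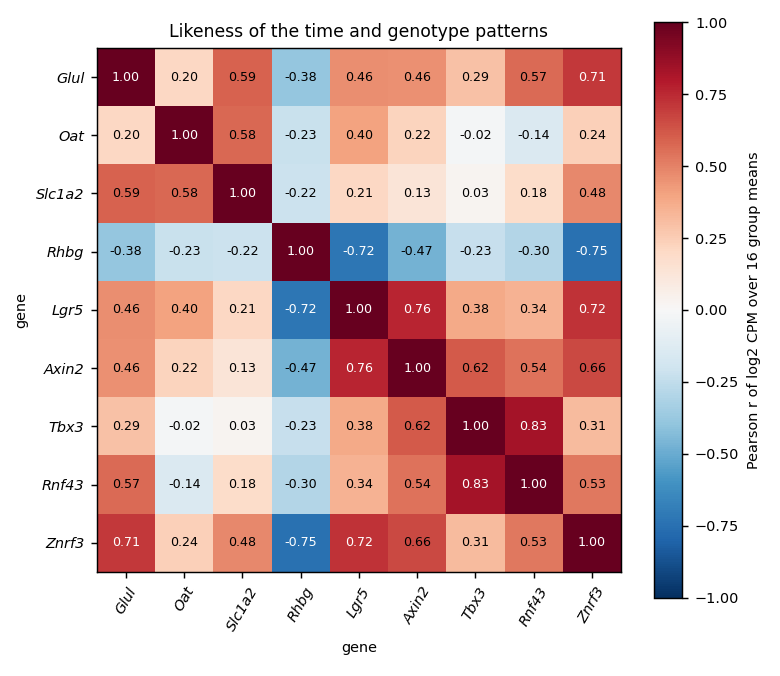
Pearson r of log2 CPM between each pair of the 9 genes over the 16 group means, with the value printed in each cell and colour from -1 (blue) to 1 (red). Tbx3 with Rnf43 is the most alike pair at 0.83, and Rhbg runs against Znrf3 at -0.75.

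Among 10203 other genes, those whose 16 group means ran most like a member were named with Pearson r, as a description. For Glul they were Rps13 (0.93), Rpl28 (0.90), Atad3a (0.90), Plcg1 (0.89) and Rgp1 (0.89). For Lgr5 they were Dnlz (0.92), Nfe2l1 (0.90), Oplah (0.90), Atp9a (0.90) and P4hb (0.90), and for Axin2 they were Bcor (0.92), Mmp19 (0.92), Dbnl (0.89), Nek6 (0.89) and Trmt12 (0.88). Oat ran most like Csrp2 (0.92) and Gss (0.90), Slc1a2 like Ttc39b (0.84) and Slc5a6 (0.83), and Rhbg like Ces1g (0.87) and Iyd (0.86). Tbx3 ran most like S1pr1 (0.83) and Lrrc14 (0.81), Rnf43 like Iffo2 (0.97) and AI464131 (0.91), and Znrf3 like Cdk6 (0.94) and Acap3 (0.90).

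All coordinates are GRCm38. Oat lies at chr7:132557478-132576398 (minus strand), Glul at chr1:153899944-153909723 (plus), Slc1a2 at chr2:102658659-102790784 (plus) and Rhbg at chr3:88242874-88254709 (minus). Lgr5 lies at chr10:115450311-115587780 (minus), Axin2 at chr11:108920349-108950783 (plus), Tbx3 at chr5:119670669-119684724 (plus), Rnf43 at chr11:87662722-87735539 (plus) and Znrf3 at chr11:5276324-5444847 (minus). Apart from Rhbg, at most 3.8% of the exonic bases of any of these genes lie under an exon of another annotated gene, counted for each strand apart.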

How the data were processed

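The authors deposited whole-number gene counts (19966 genes, not normalized), used for all main results, and FPKM values, used as an alternative and for levels between genes. Tools included FastQC 0.11.5, Trimmomatic, TopHat2 2.1.0, Cufflinks 2.2.1, HTSeq and DESeq2, and the build was mm10, per the submitters' processing notes. The strand setting is not given in the sources used here. Groups came from the titles. Levels are CPM with TMM scaling. The test was edgeR 4.0.16's quasi-likelihood test (R 4.3.3) on the counts, with filterByExpr, 16 group means and all 45 libraries (29 residual degrees of freedom, common dispersion 0.0322). Log2 changes have an SE, and p-values were adjusted by Benjamini-Hochberg over the 14090 genes tested, with calls under 0.05. Alternatives used DESeq2 1.42.0, total counts, no filter, limma 3.58.1 on log2(FPKM + 0.1 or 1), other sample sets, a replicate block and leaving out each library. Scripts were tested on simulated data. The 9 genes and all lists were chosen with earlier results of these data known. All 9 genes are named in each family of comparisons (KO against WT, change from baseline). Other lists are given by counts, with up to 4 genes per direction, and Wnt2, Wnt9b, Rspo3, Lgr4, Tcf7l2, Ctnnb1, Apc and Cyp2e1 always. For likeness, the 5 (Glul, Lgr5, Axin2) or 2 most alike genes are named, leaving out predicted genes and pseudogenes. No libraries of the same group were duplicates, and pairs across groups were not compared.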

Additional observations from a re-analysis of the deposited data

Results flagged for a closer look

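Oat at 96 h differed between the KO label and the WT label in its change from baseline, by a test of the difference itself. The change was log2 1.22 ± 0.20 under the KO label and 0.23 ± 0.20 under the WT label, a difference of 0.9977 ± 0.284 (SE, edgeR, adjusted p = 0.0470), where 1.25% of all genes had a called positive difference. It was the single call among the 9 genes, and it was kept in 4 of 19 alternatives, with adjusted p-values of 0.0127 to 0.138. Leaving out any of the 6 baseline libraries, or replicate 1 or 2 of those labelled KO at 96 h, or replicate 1 or 3 of those labelled WT at 96 h, ended it. Genotype and label cannot be told apart at this time. The percent of all genes with a called difference in either direction was 2.91.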

How the results depend on the processing

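The 0 member calls between KO and WT outside 96 h stayed at 0 under every alternative, leaving out single libraries included (0 to 0). The single call at 96 h went to 0 with total counts, with no filter and with only the 2 groups compared, and to 0 to 1 without single libraries. For KO against baseline, 8 calls higher ranged over 7 to 8 without single libraries, and 4 lower over 1 to 4, with 1 without KO baseline replicate 1, 2 with total counts and 1 with no filter. The 4 KO calls at 96 h ranged over 2 to 3 without single libraries. For WT against baseline, 7 higher became 11 with FPKM at either pseudocount and 3 to 10 without single libraries (3 without WT baseline replicate 3), and 2 lower became 4 with DESeq2, 1 with FPKM and no filter, 4 without the 96 h libraries, and 1 to 6 without single libraries. The WT call at 96 h ranged over 0 to 1. The mean KO to WT difference went from 0 calls to 1 with DESeq2 and 1 with all 8 conditions, and it and the joint test stayed at 0 to 0 without single libraries. Slc1a2 at 96 h in KO reversed from 0.00 to -0.41 with total counts, where the median of all genes shifted to -0.39, and to -0.50, -0.50 and -0.48 with FPKM (pseudocount 0.1, no filter, pseudocount 1), where the median shifted to -0.19, 0 and -0.10. The cause was not tested for these. Same-numbered libraries deviated together (r above 0.1) in 11 of 21 KO and WT pairs (r -0.463 to 0.455) and in 6 of 39 time and baseline pairs. The main test did not take the numbers as pairs. No test paired KO with WT by number within a condition, so what such pairing would do to the KO against WT results was not examined. For 40 h and baseline, whose library names share a prefix, r was -0.0648 to 0.266. With the replicate block the counts of calls stayed within 1.5 times, Axin2 in WT at 24 h was lost (adjusted p = 0.0550) and Oat in WT at 24 h was gained (adjusted p = 0.0440). With the block on baseline and 40 h libraries alone, Tbx3 in KO was lost (adjusted p = 0.143), and Glul (-0.42, 0.0422) and Rnf43 (-0.88, 0.00107) in WT were gained. Rhbg has 8 to 57 counts a library, and its shared exonic bases are given above.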
